A study of Mus musculus with 6 samples.

Results

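Mouse intestinal cells sorted for an EGFP reporter of Neurog3 were compared with wild-type intestinal epithelium across all genes. The comparison used 4 of the 6 RNA-seq libraries of the series, taken by the column names of the deposited count table, with 2 libraries per group. The EGFP cells came from mice of genotype Neurog3+/-EGFP and strain C57BL6, which carry 1 Neurog3 allele per the series' design text. The other 2 of these libraries came from C57BL6 mice labelled Wild type. The 2 remaining libraries, EYFP reporter cells with genotype Neurog3+/+EYFP on a mix of C57BL6 and CD1, entered the statistical fit but are not described for their own sake. Every library is labelled as intestinal epithelial cells, and both wild-type titles point to duodenum. The gut segment of the EGFP cells, the sorting gates, the age of the mice, and any sorting or pooling of the wild-type cells are not stated in the labels. Allele number, reporter and sorting differ between the groups together, so that their parts cannot be told apart. The labels do not say whether the 2 libraries of a group came from different mice. The p-values measure the spread between these libraries, which may be technical for EGFP and EYFP cells. The wild-type libraries differ in Xist and Ddx3y (below) as male and female samples do, so they are not repeats of 1 sample.

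Neurog3 is a basic helix-loop-helix transcription factor that is switched on for a short time in progenitors of the intestinal crypt and commits them to the enteroendocrine lineage. Enteroendocrine cells are scattered single cells that sense the gut content and release peptide hormones or serotonin from dense-core granules. The crypt also makes goblet, Paneth and tuft cells, which like enteroendocrine cells belong to the secretory lineages opened by Atoh1 where Notch signalling is low (tuft cells by a partly separate route), and absorptive enterocytes, which make up most of the villus. Wild-type epithelium holds all of these cells, with enteroendocrine cells as a small minority. In bulk RNA of this kind, fewer cells of a type and less RNA per cell cannot be told apart.

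The 4 libraries held 7938358 and 11714961 (EGFP replicates 1 and 2) and 13674214 and 20589683 (wild-type replicates 1 and 2) estimated counts. The wild-type replicates stood apart from each other in several respects. The X-inactivation RNA Xist read 1.17 and 726 CPM in wild-type replicates 1 and 2 and 966 and 969 CPM in the EGFP replicates. The Y-linked gene Ddx3y read 62.4 and 0.121 CPM in the wild-type replicates and was at 0 in both EGFP replicates. By these genes wild-type replicate 1 read as male, and wild-type replicate 2 and both EGFP replicates as female. Sex thus differed within wild type and in part between the groups. Summed over 26 brush border genes, wild-type replicate 2 was higher (26622 and 49013 CPM), and summed over 7 MHC class II genes, wild-type replicate 1 was higher (3421 and 379 CPM). Their part in the results was not tested, and results that change without either library are given below with that library named.

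Levels are given in CPM, the usual scale of counts relative to the library total (here corrected by the trimmed mean of M-values, TMM), for replicate 1 and then replicate 2. Differences are log2 fold changes of EGFP over wild type with their standard error, and adjusted p-values are Benjamini-Hochberg values over all genes tested from edgeR's quasi-likelihood test. Of 13935 genes tested, 2733 (19.6%) were higher and 3046 (21.9%) lower in EGFP cells at an adjusted p below 0.05, so 41.5% of all genes were called in 1 of the directions. The median log2 fold change over all genes was 0.00. At least 2-fold differences accounted for 2055 of the higher and 1810 of the lower genes, and at least 16-fold differences for 450 and 300. Without EGFP replicate 1 the lower genes dropped to 1864, of which 1844 were among the 3046, and the higher genes to 2296. The fold in the authors' deposited table is named as EGFP against duodenum, but its inverse had the sign of edgeR's difference for 98.5% of the 13906 genes in both tables, so it was inverted here, and the direction of its calls is no independent check. Read that way, the authors' deposited table had 2192 genes higher and 2614 lower at an adjusted p below 0.05. Of these, 2154 (98.3%) and 2555 (97.7%) were also called by edgeR in that direction, which is 79.0% and 84.1% of edgeR's own calls.

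**Figure D1:**
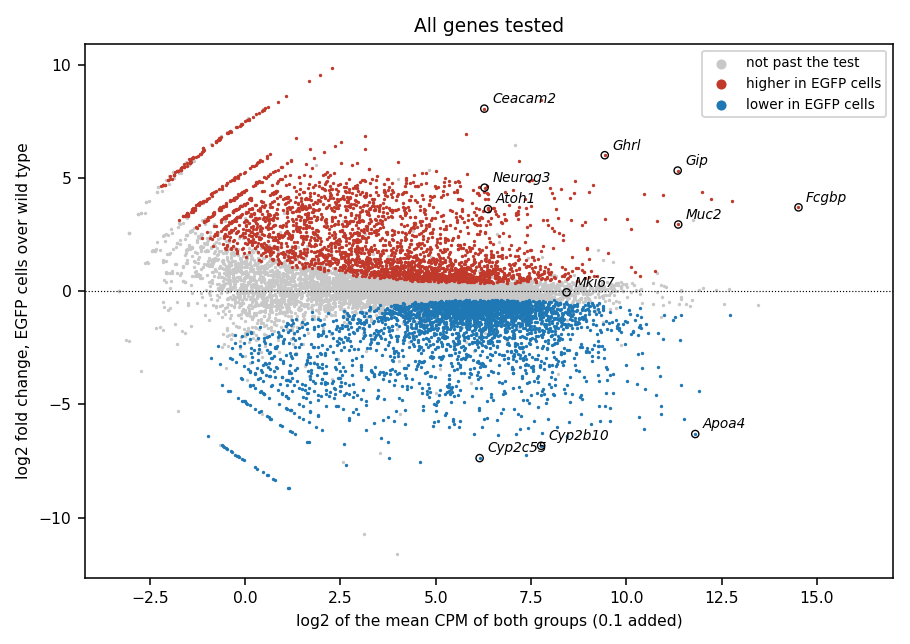
Log2 fold change of EGFP cells over wild-type epithelium (vertical) against the log2 of the mean CPM of both groups (horizontal) for the 13935 genes tested; each point is a gene, red and blue points passed edgeR's test at an adjusted p below 0.05, and circled genes are named. The 2733 higher and 3046 lower genes lie on both sides of 0 over the whole range of levels, with 450 higher and 300 lower genes beyond 16-fold.

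The genes were then read in 33 lists by role, of which 22 concern the lineages of the epithelium and 11 concern other cell types or states that a sample could hold. The counts below are of list members that passed low-count filtering and are to be read against the 19.6% of all genes called higher and the 21.9% called lower. A member of a list that is silent in wild-type epithelium passes the filter through the EGFP or EYFP libraries alone, so its difference is in part set by that filter.

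**Figure D2:**
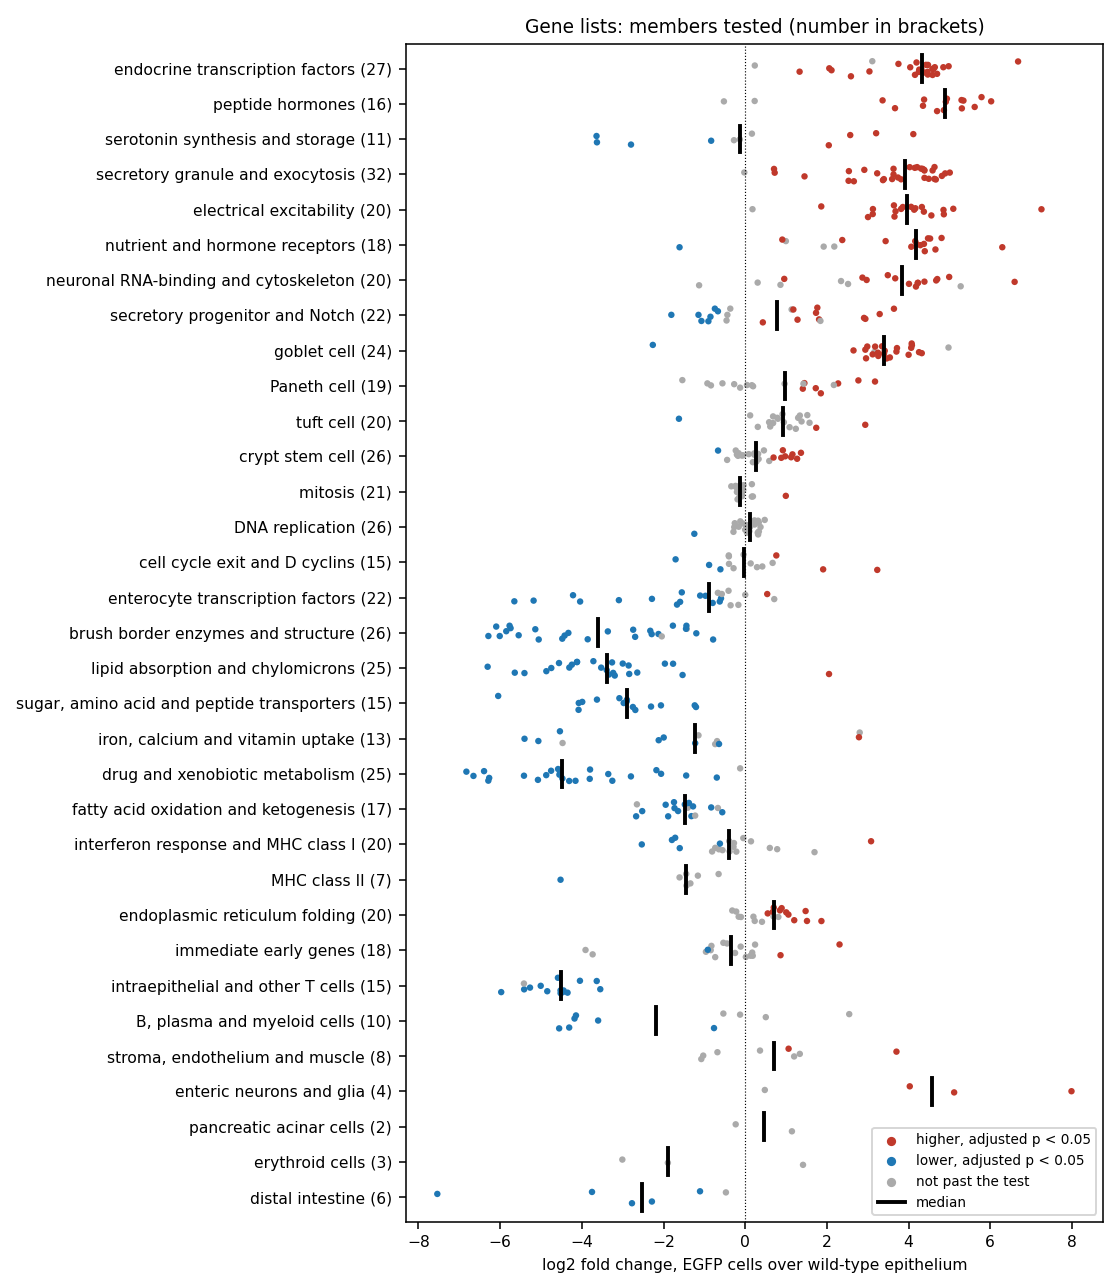
Log2 fold change of EGFP cells over wild-type epithelium (horizontal) for every tested member of the 33 gene lists (rows, with the number of members tested in brackets); points are genes, coloured by edgeR's test at an adjusted p below 0.05, and black bars are list medians. The lists of endocrine factors, hormones, granule, channel, receptor and neuronal genes have medians between 3.84 and 4.89 and brush border, lipid, transporter and xenobiotic lists between -4.48 and -2.90, while the mitosis and DNA replication medians are -0.12 and 0.11.

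The reporter gene's own locus came first. Neurog3 (chromosome 10, 62133090 to 62134763, GRCm38) read 119.5 and 179 CPM in EGFP cells, 6 and 6.39 CPM in wild type and 563 and 348 CPM in EYFP cells. Both EGFP libraries therefore stood above both wild-type libraries and below both EYFP libraries. The log2 fold change over wild type was 4.59 ± 0.33 (edgeR adjusted p = 8.3e-05). Whether transcripts of the targeted allele add reads to the gene's count is not stated in the labels.

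Transcription factors of the endocrine lineage were higher almost throughout. Of 27 tested members, 25 rose and 0 fell, with a median log2 fold change of 4.32, or 4.26 with members silent in wild type set to their bound. Neurod1, a factor switched on downstream of Neurog3, read 112 and 149 CPM against 6.66 and 6.03 CPM in wild type (log2 fold change 4.36 ± 0.21, edgeR adjusted p = 2e-05). Insm1, a zinc-finger factor of neuroendocrine cells, read 96 and 96.6 against 5.83 and 5.85 CPM. Pax4, an early factor, read 27.4 and 34 against 1.42 and 1.63 CPM. In each of these the 2 EGFP libraries lay far above the 2 wild-type libraries, with little spread within a group.

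Factors tied to later endocrine fates were high as well. Isl1 read 79.8 and 75.9 against 2.75 and 3.2 CPM and Rfx6 122 and 118 against 5.25 and 5.55 CPM. Fev, which acts in serotonin-producing cells, read 38.8 and 48.5 against 1.58 and 1.87 CPM. Lmx1a, active in the same cells, read 55.5 and 83.4 against 3.33 and 3.14 CPM. All 4 rose by between 4.43 and 4.70 on the log2 scale. Among members at 5 CPM or more the 2 with the widest differences were Etv1, an ETS factor, with a log2 fold change of 4.98 ± 0.51 (20.7 and 30.9 against 0.999 and 0.663 CPM, edgeR adjusted p = 0.00047), and Onecut3, with 4.85 ± 0.71 (9.29 and 21.6 against 0.666 and 0.422 CPM, edgeR adjusted p = 0.0025). Without EGFP replicate 2, Onecut3 came to 4.11. Lmx1b had 0 counts in both wild-type libraries and was at least 9.47-fold higher in EGFP cells, against a floor of 3 counts over the group. The members that did not pass were Pdx1, a factor of the proximal gut epithelium as a whole (6.75 and 11.1 against 10.1 and 5.31 CPM), and Egr4 (1.81 and 0.338 against 0.25 and 0 CPM), which passed without EGFP replicate 2 (3.95), by the DESeq2 Wald test (3.26) and without wild-type replicate 1, which left wild type at 0 counts and EGFP cells at least 5.22-fold higher against 3 counts.

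Hormone genes of many enteroendocrine types were high in the same 2 libraries. Of 16 tested, 14 rose and 0 fell, with a median of 4.89, or 4.54 at bounds. Ghrl, which encodes ghrelin, read 1083 and 1639 CPM against 21 and 20.9 CPM, a log2 fold change of 6.02 ± 0.34 (edgeR adjusted p = 2.8e-05). Cck, the hormone of fat and protein sensing I cells, read 708 and 1289 against 48.1 and 47.8 CPM (4.38 ± 0.61, edgeR adjusted p = 0.002). Gip, the incretin of K cells, read 4456 and 5704 against 92.2 and 158 CPM (5.34 ± 0.91, edgeR adjusted p = 0.0049). These 3 hormones are usually taken as marks of different enteroendocrine cell types.

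Sct, encoding secretin, read 583 and 1569.7 against 38.4 and 44.5 CPM, with EGFP replicate 2 well above replicate 1. Gcg, the source of glucagon-like peptides in L cells, read 576 and 917 against 38.8 and 34.3 CPM, and Sst, of D cells, 840.1 and 710.3 against 19.7 and 33.3 CPM. Pyy read 53.5 and 72.5 against 1.17 and 1.93 CPM and Tac1, which encodes substance P of enterochromaffin cells, 359 and 352 against 12.6 and 11 CPM. These 5 rose by between 4.35 and 5.31 on the log2 scale. Nts, encoding neurotensin, read 154 and 416 against 3.91 and 6.27 CPM (5.79 ± 1.3, edgeR adjusted p = 0.03). Gal and Gast had 0 counts in wild type and were at least 4.74-fold and 3.79-fold higher. Nmb (0.603 and 1.18 against 1.25 and 1.39 CPM) and Adm (1.57 and 3.21 against 2.42 and 1.75 CPM) did not pass.

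The hormone count moved with single libraries: 9 of 16 passed without EGFP replicate 2, and 8 without either wild-type replicate. Nts was among those lost in all 3 cases (log2 fold changes 4.90, 5.50 and 6.18) and without low-count filtering (5.78), and came to 6.44 without EGFP replicate 1. Gip was lost without wild-type replicate 1 (5.01) or 2 (5.78), and Sct came to 5.34 and 3.81 without EGFP replicates 1 and 2. The list's sum was 8850.4 and 12738 CPM in EGFP cells and 282 and 364 CPM in wild type.

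**Figure D3:**
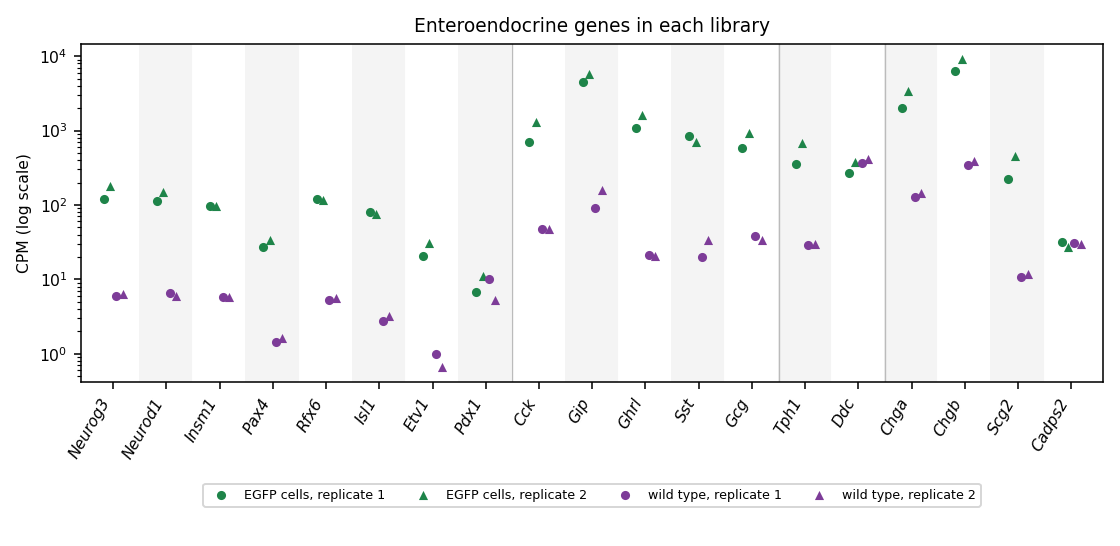
Levels of 19 enteroendocrine genes in the 4 libraries (vertical, CPM on a log scale); green symbols are EGFP cells and purple symbols wild-type epithelium, circles replicate 1 and triangles replicate 2, with grey lines between factors, hormones, serotonin genes and granule genes. The EGFP symbols lie above the wild-type symbols for every gene shown except Pdx1, Ddc and Cadps2.

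Genes of serotonin synthesis and storage were divided. Of 11 tested, 4 rose and 4 fell (median -0.13). Tph1 (chromosome 7, 46644641 to 46672537, GRCm38), the rate-limiting enzyme of serotonin synthesis outside the brain, read 351 and 678 against 29 and 30.3 CPM (4.12 ± 0.35, edgeR adjusted p = 0.00011). The vesicular amine carrier Slc18a1 read 71.2 and 127 against 13 and 20.3 CPM. The related carrier Slc18a2 read 24.8 and 20.5 against 2.33 and 2.53 CPM, and Gch1, which starts synthesis of the enzyme's cofactor, 66.2 and 68.9 against 18 and 14.8 CPM. These are the 4 that rose. The 4 that fell take up or break down serotonin, except for the cofactor enzyme Spr. Maoa, a monoamine oxidase, read 100 and 137 against 1374 and 1589 CPM (-3.64 ± 0.25, edgeR adjusted p = 4.5e-05) and Maob 16.3 and 22.6 against 175 and 309 CPM. The serotonin transporter Slc6a4, which absorptive cells carry, read 16.9 and 18.7 against 101 and 146 CPM, and Spr 55.4 and 47.6 against 89 and 94.3 CPM. Ddc, the decarboxylase that completes serotonin synthesis and is also abundant in enterocytes, read 272 and 379.7 against 370.1 and 419 CPM and did not pass (-0.27 ± 0.23).

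The machinery of the secretory granule rose nearly as a block. Of 32 tested members, 31 were higher and 0 lower, with a median of 3.92. Chromogranin A (Chga) read 1989.6 and 3357 against 126 and 144 CPM (4.31 ± 0.36, edgeR adjusted p = 1e-04) and Chgb 6279 and 9077 against 345 and 388 CPM. The prohormone convertase Pcsk1 read 179 and 271 against 13.7 and 18.1 CPM and the carboxypeptidase Cpe, which trims the cut peptides, 449 and 522 against 18.7 and 21.6 CPM. Scg3, a granin that binds granule membrane, read 70.7 and 104 against 2.5 and 3.62 CPM, and the synaptotagmin Syt13 74.9 and 104 against 4 and 3.92 CPM. Snap25, of the membrane fusion complex, read 21.7 and 37.1 against 2.33 and 2.41 CPM. The narrowest of these 7 differences was that of Snap25, at 3.63 on the log2 scale. The 2 widest differences at 5 CPM or more were Scg5 (33.8 and 113 against 1.75 and 2.71 CPM, 5.01 ± 0.71, edgeR adjusted p = 0.0041) and Scg2 (224 and 456 against 10.8 and 11.9 CPM, 4.90 ± 0.97, edgeR adjusted p = 0.017). Scg5 came to 5.73 and 3.89 without EGFP replicates 1 and 2, and Scg2 lost its call without EGFP replicate 2 (4.29), without either wild-type replicate (4.83 and 4.97) and without low-count filtering (4.89). The member that did not pass was Cadps2, a priming factor that read 32 and 27.6 against 30.9 and 29.5 CPM (-0.02 ± 0.16).

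Ion channels of electrically excitable cells rose in 19 of 20 cases (median 3.96, or 3.89 at bounds). Cacna1a, a pore subunit of voltage-gated calcium channels, read 143 and 154 against 17.3 and 16.8 CPM (3.12 ± 0.16, edgeR adjusted p = 2.5e-05). Kcnj11, the pore of the ATP-sensitive potassium channel that couples glucose to secretion, read 18.8 and 23.9 against 0.25 and 0.905 CPM (5.10 ± 0.46, edgeR adjusted p = 0.00021), with a ratio of 87.3 (95% counting interval 29.7 to 425) over the 3 counts left without wild-type replicate 2. Abcc8, the channel's regulatory subunit, read 84.1 and 99.8 against 3.58 and 2.77 CPM (4.86 ± 0.46, edgeR adjusted p = 0.00047). Both subunits thus rose. The sodium channel Scn3a read 63.9 and 86.1 against 3.25 and 4.16 CPM, the potassium channel Kcnb2 11.1 and 15.6 against 0.583 and 0.543 CPM, and the irritant sensor Trpa1 of enterochromaffin cells 108 and 140 against 11.2 and 8.14 CPM. Scn9a had 0 counts in wild type and was at least 15.2-fold higher. Hcn3 did not pass (2.77 and 6 against 4.75 and 3.2 CPM).

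Receptors for nutrients and hormones rose in 14 of 18 cases and fell in 1 (median 4.18). Ffar1, a receptor of long-chain fatty acids, read 5.91 and 11.7 against 0.0833 and 0.543 CPM (4.66 ± 0.66, edgeR adjusted p = 0.0014) and came to 4.01 without wild-type replicate 1. Without replicate 2, which left 1 count, its ratio was 112 (95% counting interval 19.8 to 4430). Gpr119, a receptor of fat-derived amides, read 8.44 and 11.2 against 0.333 and 0.482 CPM (4.53 ± 0.43, edgeR adjusted p = 0.00017). Ffar2, a receptor of short-chain fatty acids, read 56.6 and 77.3 against 4 and 3.5 CPM. Ffar4, another receptor of long-chain fatty acids, read 22.3 and 24.2 against 1.58 and 1.21 CPM. The calcium-sensing receptor Casr read 3.26 and 9.13 CPM in EGFP cells against 1 count in each wild-type library, a ratio of levels of 95.9 with a 95% interval of 26 to 800 that covers counting error only. Its call was lost without either wild-type replicate, each of which left 1 count (ratios of 111 and 80.6, with 95% counting intervals of 19.6 to 4430 and 14.2 to 3210), and its log2 fold change came to 6.94 and 5.35 without EGFP replicates 1 and 2, from 6.30 in the fit of all 6 libraries. The somatostatin receptor Sstr5 read 17 and 33.8 against 0.833 and 1.39 CPM (4.48 ± 0.42; 3.89 without EGFP replicate 2). Lpar5, a receptor of lysophosphatidic acid, was the member that fell (11.8 and 10.4 against 24.4 and 43.1 CPM, -1.61 ± 0.29).

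Genes otherwise known from neurons rose in 14 of 20 tested cases and fell in 0 (median 3.84, or 3.58 at bounds). The filter removed 8 of the 28 members with a row. Nefm, a neurofilament subunit, read 37.6 and 34.3 against 1.08 and 1.15 CPM (4.99 ± 0.20, edgeR adjusted p = 2e-05). Nefl, its partner, read 12.2 and 10.2 CPM against 3 counts in all of wild type, a ratio of 105 with a 95% counting interval of 35.5 to 514. The ratio was 183 (32.5 to 7260) and 66.3 (18.1 to 550) without wild-type replicates 1 and 2. The RNA-binding protein Celf3 read 119 and 193 against 5.5 and 6.63 CPM and the microtubule protein Map1b 53.3 and 63.7 against 3.16 and 3.08 CPM. Elavl4, a neuronal RNA-binding protein, read 1.69 and 0.93 CPM, with a ratio to wild type of 11.8 and a 95% counting interval of 3.61 to 61.3. Hand2 and Sox10, which mark enteric neurons and glia themselves, were at 0 in all 4 libraries. Of the 4 tested members of that marker list, Ret (26.7 and 47.5 against 2.25 and 2.29 CPM), Snap91 (at least 24.6-fold higher) and Chrna3 (at least 3.32-fold higher) rose. Snap91 (2.17 and 2.87 CPM) and Chrna3 (0.121 and 0.507 CPM) had 0 counts in wild type and passed the filter through the reporter libraries alone. This count is thus in part set by the filter.

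Genes of the shared secretory progenitor and of Notch signalling moved in both directions, with 11 of 22 higher and 7 lower (median 0.78). Atoh1 (chromosome 6, 64729125 to 64731245, GRCm38), the factor that opens all secretory fates, read 150.3 and 155 against 8.66 and 15.6 CPM (3.64 ± 0.31, edgeR adjusted p = 0.00018). The co-repressor Cbfa2t3 read 82.7 and 85.7 against 7.83 and 9.29 CPM (3.29 ± 0.15, edgeR adjusted p = 2e-05). The zinc-finger factor Gfi1 read 50.8 and 49.4 against 4.41 and 8.74 CPM, a log2 fold change of 2.91 that came to 3.50 without wild-type replicate 2. Dll1, a Notch ligand that secretory progenitors display, read 243 and 277 against 71.5 and 77 CPM. Dll4, another such ligand, read 134 and 147 against 16.2 and 20.3 CPM. Hes6, an inhibitor of Hes1, read 120.5 and 130.5 against 48.4 and 54.8 CPM.

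The 7 that fell were the receptors Notch1 and Notch2, the ligand Jag1, the target genes Hes1 and Nrarp, and the modifiers Rfng and Numb. Notch1 read 38 and 30.4 against 61.4 and 52.9 CPM (-0.74 ± 0.18), Hes1 34.3 and 23.5 against 82.6 and 44.8 CPM (-1.14 ± 0.33), and Numb 42.6 and 42.5 against 135 and 163 CPM (-1.81 ± 0.15). The groups did not overlap in any of the 3, which were picked among called genes. The share of all genes without overlap was not counted. The number of lower members was 3 without EGFP replicate 1 and 2 without EGFP replicate 2 or wild-type replicate 1. Notch1 was lost without EGFP replicate 2 (-0.59) or wild-type replicate 1 (-0.63), and Hes1 without EGFP replicate 1 (-1.35) or 2 (-0.89), without wild-type replicate 1 (-0.64), and in the fit of the 4 libraries alone (-1.09).

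Goblet cell genes were higher nearly throughout. Of 24 tested, 21 rose and 1 fell, with a median of 3.41, and the list's sum was 67178 and 106668 CPM in EGFP cells against 5893 and 7833 CPM in wild type. Muc2 (chromosome 7, 141690340 to 141754691, GRCm38), the gel-forming mucin of intestinal mucus, read 4179 and 5144 against 523 and 676 CPM (2.96 ± 0.73, edgeR adjusted p = 0.02). Spdef, the factor that matures goblet and Paneth cells, read 276 and 248 against 14.9 and 29.7 CPM, with 3.54 on the log2 scale and 4.13 without wild-type replicate 2. Agr2, the disulfide isomerase needed for mucin folding, read 3975 and 3593 against 188 and 208 CPM (4.26 ± 0.62, edgeR adjusted p = 0.0023). Fcgbp, a mucus protein bound to Muc2, read 33560.1 and 53500.1 against 3113 and 3508 CPM, and the trefoil peptide gene Tff3 5972 and 12196 against 515 and 557 CPM. In every one of these the lower EGFP library was at least 5-fold above the higher wild-type library.

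Pla2g10, a secreted phospholipase, had the widest difference among goblet genes at 5 CPM or more (29.7 and 35.6 against 1.33 and 1.87 CPM, 4.32 ± 0.44, edgeR adjusted p = 0.00027), and the chemokine gene Ccl9 read 346 and 269 against 18.2 and 18.5 CPM. The lectin-like Zg16 read 8157 and 18287 against 739.7 and 912 CPM. Clca1, which the table lists under its older symbol Clca3, did not pass (4808 and 7529 against 290.2 and 1087 CPM), although it did by the DESeq2 Wald test (3.21), in the fit of the 4 libraries alone (3.26) and under the replicate block (3.52). Retnlb, which was high in EGFP replicate 1 alone (61.4 and 0.338 against 0 and 1.75 CPM), passed without EGFP replicate 2 (5.98). The member that fell was St6galnac1, a sialyltransferase (0.965 and 0.507 against 4 and 2.95 CPM), a call that was lost without EGFP replicate 2 (-1.83) or wild-type replicate 1 (-2.03). Muc2 lost its call without EGFP replicate 2 (2.80), without wild-type replicate 1 (2.79) or 2 (3.16), and without low-count filtering (2.95), Zg16 without wild-type replicate 1 (3.86) or 2 (4.16) and without that filtering (4.0), with 3.30 without EGFP replicate 2, and Tff3 kept its call but came to 3.48 without EGFP replicate 2. The list's count was 21 of 24 in the fit of all 6 libraries and stayed within 1.5 times of that in each setting tried.

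Paneth cell genes did not behave as 1 group. Of 19 tested, 7 rose, 0 fell and 12 did not pass (median 0.96), and the list's sum overlapped between groups (18096 and 23331 CPM in EGFP cells, 14912 and 23493 CPM in wild type). Lyz1, the Paneth cell lysozyme, read 3253 and 4521 against 4191 and 3348 CPM (0.04 ± 0.39, edgeR adjusted p = 0.94). Reg4, a lectin also made by enteroendocrine cells, read 1399.5 and 2459 against 150.5 and 414 CPM (2.77 ± 0.55, edgeR adjusted p = 0.0072; 3.68 without wild-type replicate 2). The matrix protease Mmp7, which activates defensins, read 687 and 377 against 79.1 and 140.3 CPM. So the lysozyme overlapped between groups, while Reg4 and Mmp7, picked among the called members, did not.

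The alpha-defensin genes are near-identical copies, and estimated counts divide reads between them, so that their single values are uncertain. Defa3 read 237 and 1.94 CPM, Defa20 331 and 0 CPM and Defa21 123 and 0.254 CPM in EGFP cells, so that all 3 were near or at 0 in replicate 2 only. Wild type read 255 and 435, 65.5 and 8.32 and 145 and 86.6 CPM for them, and without EGFP replicate 1 Defa21 passed as lower, with wild type above the 3 counts left by a ratio of 439 (95% counting interval 150.0 to 2130). Without low-count filtering 4 rather than 7 members of the list passed. Mmp7 was lost there (2.27) and without wild-type replicate 1 (1.92).

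Tuft cell genes passed in 2 of 20 cases upward and 1 downward, both below the 19.6% and 21.9% of all genes. The median was 0.93. Pou2f3, the master factor of tuft cells, read 18.3 and 10.4 against 2.66 and 5.79 CPM (1.74 ± 0.44, edgeR adjusted p = 0.015), and the other member that rose was Gng13 (1.81 and 1.01 against 0.0833 and 0.241 CPM). Dclk1, a kinase used as a tuft marker, read 30.5 and 16.9 against 3.58 and 15.4 CPM (1.3 ± 0.69, edgeR adjusted p = 0.19), and the taste channel Trpm5 73.3 and 43.1 against 7.49 and 38 CPM. Ltc4s, of leukotriene synthesis, fell (3.02 and 2.62 against 6.66 and 10.6 CPM, -1.62 ± 0.46, edgeR adjusted p = 0.024). Wild-type replicate 1 was the lower of the wild-type libraries for all 20 members, with a sum of 62 and 236 CPM in the wild-type replicates and 390.2 and 222 CPM in the EGFP replicates.

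The tuft result turned on the wild-type library used: without wild-type replicate 2, 14 of 20 members rose with a median of 2.48, and without wild-type replicate 1 or EGFP replicate 1, 0 passed upward, with a median of 0.26 without wild-type replicate 1. Pou2f3 and Gng13 were both lost without EGFP replicate 1 (1.40 and 2.60) and without wild-type replicate 1 (1.3 and 2.47). Without wild-type replicate 2, Pou2f3 came to 2.42. Gng13 was lost also without wild-type replicate 2 (1 count left, a ratio of 16.1 with a 95% counting interval of 2.66 to 660) and by the DESeq2 Wald test (3.12). Dclk1 passed without wild-type replicate 2 (2.72). Ltc4s was lost without EGFP replicate 1 (-1.61), EGFP replicate 2 (-1.52) or wild-type replicate 2 (-1.24).

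Of 26 markers of crypt stem cells, 8 rose and 1 fell, with a median of 0.27. Lgr5, the Wnt-responsive receptor that marks cycling stem cells, read 27.4 and 16.2 against 26.6 and 19.4 CPM (-0.08 ± 0.30, edgeR adjusted p = 0.85), and Olfm4 1039.6 and 851 against 1376 and 843 CPM. Both overlapped between groups. The members that rose included the crypt factor Sox9 (82.5 and 50.9 against 36.1 and 34.2 CPM), the adhesion receptor Cd44 (92.5 and 77.5 against 39.5 and 36.7 CPM), Ephb3, a receptor that positions crypt cells (66.5 and 52.1 against 24.2 and 24.8 CPM, 1.27 ± 0.22, edgeR adjusted p = 0.0027), and Mex3a (12.1 and 14.7 against 6 and 4.46 CPM, 1.37 ± 0.30, edgeR adjusted p = 0.0086). Rnf43, a Wnt target that removes Wnt receptors, fell (53.5 and 43.6 against 83.8 and 70.1 CPM). Calls were lost for Sox9 without EGFP replicate 1 (0.63) or wild-type replicate 1 (0.96) or 2 (0.88), for Mex3a without EGFP replicate 2 (1.21) or wild-type replicate 2 (1.16), and for Rnf43 without EGFP replicate 2 (-0.52) or wild-type replicate 1 (-0.53).

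Cell division genes were rarely called different. Of 21 mitosis genes 1 rose and 0 fell (median -0.12), and of 26 DNA replication genes 0 rose and 1 fell (median 0.11). The proliferation antigen gene Mki67 read 352 and 329 against 431 and 269 CPM (-0.04 ± 0.29, edgeR adjusted p = 0.93). Pcna, the replication clamp, read 179.9 and 146 against 237 and 161 CPM (-0.29 ± 0.21, edgeR adjusted p = 0.32). For both the groups overlapped. Plk1, a mitotic kinase, was the mitosis gene that rose (111 and 129 against 66.7 and 54 CPM, 0.99 ± 0.23, edgeR adjusted p = 0.011) and fell short without EGFP replicate 2 (0.88) or wild-type replicate 2 (0.85).

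Of 15 genes of cell cycle exit and D cyclins, 3 rose and 3 fell, near the 19.6% and 21.9% of all genes. Cdkn1c, which encodes the cyclin-dependent kinase inhibitor p57, read 41.9 and 66.5 against 5 and 6.45 CPM (3.23 ± 0.26, edgeR adjusted p = 1e-04). Gadd45g, a growth arrest gene, read 105 and 89.7 against 16.6 and 34.9 CPM (1.91 ± 0.36, edgeR adjusted p = 0.0068) and came to 2.55 without wild-type replicate 2. Ccnd3, a D cyclin, read 56.6 and 57.8 against 36 and 31.5 CPM. Cdkn1a, encoding p21, did not pass (212 and 294 against 185 and 229 CPM, 0.29 ± 0.21, edgeR adjusted p = 0.31). The inhibitor Cdkn2b (25.7 and 41.1 against 97.9 and 121 CPM) and the retinoblastoma family genes Rbl2 (28.5 and 32.3 against 56.5 and 55.7 CPM) and Rb1 (52.5 and 60.3 against 71.7 and 100 CPM) fell. Rb1 (-0.61) lost its call under 6 of the 11 other settings, among them those without EGFP replicate 1 (-0.41), EGFP replicate 2 (-0.71) or wild-type replicate 2 (-0.35).

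**Figure D4:**
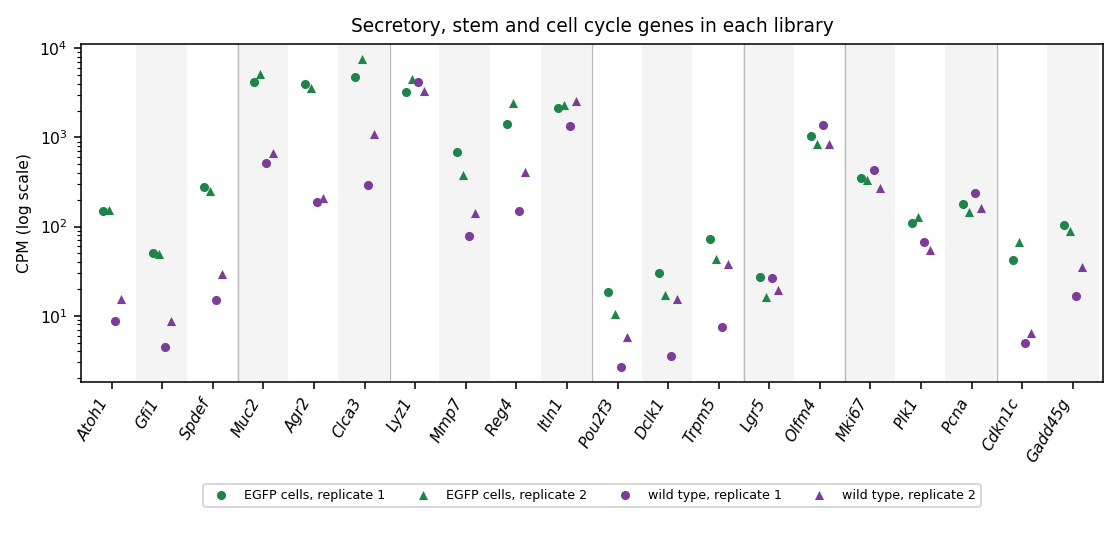
Levels of 20 genes of the secretory lineages, crypt stem cells and cell cycle in the 4 libraries (vertical, CPM on a log scale); green symbols are EGFP cells and purple symbols wild-type epithelium, circles replicate 1 and triangles replicate 2, with grey lines between progenitor factors, goblet, Paneth, tuft, stem, cycling and exit genes. EGFP symbols lie above wild type for Atoh1, Gfi1, Spdef, Muc2 and Cdkn1c and overlap with wild type for Lyz1, Lgr5, Olfm4, Mki67 and Pcna.

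Transcription factors of enterocytes fell in 14 of 22 cases and rose in 1 (median -0.88), with a wide range between members. Hnf4a, a nuclear receptor present along the whole crypt-villus axis, read 743 and 719 against 985 and 955 CPM and did not pass (-0.41 ± 0.17, edgeR adjusted p = 0.093), while the DESeq2 Wald test called it lower (-0.36). Its paralog Hnf4g, which is enriched in the villus, read 62 and 61 against 493 and 556 CPM (-3.09 ± 0.20, edgeR adjusted p = 3.7e-05). The difference between the 2 paralogs was not tested. Creb3l3 (chromosome 10, 81084329 to 81098872, GRCm38), a factor of lipid handling, read 7.24 and 11.7 against 439 and 524 CPM (-5.65 ± 0.51, edgeR adjusted p = 0.00041), and Maf 6.27 and 5.41 against 144 and 278 CPM (-5.18 ± 0.46, edgeR adjusted p = 0.00038).

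Smaller decreases were called for Gata4, the factor of proximal gut identity (114 and 124 against 256 and 257 CPM), Gata6 (74.8 and 68.8 against 124 and 125 CPM), the vitamin D receptor gene Vdr (238 and 271 against 757 and 736 CPM) and Ppara, a sensor of fatty acids (27.7 and 28.3 against 91.3 and 87.1 CPM). The xenobiotic receptor Nr1i3 fell further (4.1 and 4.57 against 59.7 and 102 CPM, -4.22 ± 0.35). Cdx1, a homeobox factor of intestinal identity, was the member that rose (214 and 183 against 141 and 132 CPM, 0.54 ± 0.14), a call lost without EGFP replicate 1 (0.52) or wild-type replicate 2 (0.49).

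Brush border genes, which build the microvilli and their digestive enzymes, fell in 24 of 26 cases and rose in 0 (median -3.61). The list's sum was 3795 and 4652 CPM in EGFP cells. The promoter windows of 3 of these genes are shown because they are among the widest falls of the list and because they hold the letters CAAAGTC, the core of the motif known for HNF4 factors. The windows are RefSeq's, on GRCm38.p6, and run from 250 bases before to 50 bases after the start of the gene, with CAAAGTC or its reverse complement GACTTTG in capitals. Treh (chr9:44672983-44673282, plus strand) holds it at 2 places, the nearer match ending 63 bases before the start site, Alpi (chr1:87101557-87101856, minus strand) 13 bases before it and Akp3 (chr1:87124704-87125003, plus strand) 38 bases before it.
Treh: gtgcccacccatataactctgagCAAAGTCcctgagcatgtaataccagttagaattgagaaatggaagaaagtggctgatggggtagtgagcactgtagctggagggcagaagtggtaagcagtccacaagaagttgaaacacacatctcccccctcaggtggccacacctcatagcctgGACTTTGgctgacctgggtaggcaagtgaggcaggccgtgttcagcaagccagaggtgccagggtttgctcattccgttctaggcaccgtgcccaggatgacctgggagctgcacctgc
Alpi: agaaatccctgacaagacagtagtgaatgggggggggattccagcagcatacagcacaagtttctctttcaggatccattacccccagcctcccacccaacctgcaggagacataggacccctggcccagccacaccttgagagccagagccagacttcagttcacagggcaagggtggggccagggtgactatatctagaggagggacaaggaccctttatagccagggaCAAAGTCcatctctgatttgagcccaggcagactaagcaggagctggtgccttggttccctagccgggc
Akp3: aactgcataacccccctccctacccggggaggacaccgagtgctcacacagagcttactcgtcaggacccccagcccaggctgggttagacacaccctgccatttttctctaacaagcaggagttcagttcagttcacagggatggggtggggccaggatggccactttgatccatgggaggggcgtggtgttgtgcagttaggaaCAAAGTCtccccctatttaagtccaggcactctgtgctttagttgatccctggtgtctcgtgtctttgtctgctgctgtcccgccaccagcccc
Over the list, 21 of 26 genes had a window, and 7 of those (33.3%) held CAAAGTC on either strand, against 1350 of 27025 genes (5.0%) with a window. The 7 were Treh, Alpi, Akp3, Ace, Ggt1, Cdhr2 and Tmigd1. In the lipid list the letters were in 1 of 18 windows (5.56%), in Cideb. Other motifs were searched in the same way. GTTAAT, a half-site of HNF1 factors, was in 2 of 21 brush border genes (9.52%), 3 of 18 lipid genes (16.7%) and 2228 of all genes (8.24%). It was also in 2 of 21 endocrine factor genes and 0 of 23 granule genes. CAGATG, an E-box bound by proneural factors, was in 4 of 21 endocrine factor genes and 1 of 23 granule genes (4.35%). It was in 5 of 21 brush border genes (23.8%), 2 of 18 lipid genes (11.1%) and 5196 of all genes (19.2%). CAAAGTC was in 0 of 21 endocrine factor genes and 0 of 23 granule genes. A match is a description of letters and not of a bound site, and no binding was measured here.

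Treh, which encodes the disaccharidase trehalase, read 8.32 and 9.22 against 451 and 684 CPM (-6.01 ± 0.50, edgeR adjusted p = 0.00028). The alkaline phosphatase genes Alpi and Akp3 lie close together on chromosome 1 and may share reads. Alpi read 35.1 and 49.4 against 1463 and 1521 CPM (-5.14 ± 0.41). Akp3 read 1.45 and 5.16 against 439 and 105 CPM (-6.29 ± 1.21, edgeR adjusted p = 0.018). Akp3 spread widely within both groups, and it no longer passed without either EGFP replicate (-5.64 and -7.55), without low-count filtering (-6.29) and under the replicate block (-6.24), while it came to -4.92 and -6.97 without wild-type replicates 1 and 2. Lactase (Lct) read 32 and 49.7 against 1764 and 3838 CPM (-6.10 ± 0.65, edgeR adjusted p = 0.00073; -5.43 without wild-type replicate 2), and sucrase-isomaltase (Sis) 253 and 396 against 2471 and 4207 CPM (-3.36 ± 0.44, edgeR adjusted p = 0.00095).

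The peptidase genes followed. Anpep read 305 and 374 against 4809.6 and 9759.8 CPM, Mme 19.5 and 17.1 against 751 and 1359 CPM, and the angiotensin-converting enzyme Ace 55.5 and 53.1 against 1374 and 3702 CPM. All 3 fell by more than 4 on the log2 scale, and without wild-type replicate 2, the higher library for each, Anpep came to -3.82 and Ace to -4.66. Vil1, which encodes the actin bundler villin, read 684 and 799 against 2372 and 4087 CPM (-2.12 ± 0.30). Tmigd1 (0.603 and 0.254 against 1.08 and 2.29 CPM) and Xpnpep2 (42.9 and 76.4 against 80.1 and 242 CPM) did not pass, while Xpnpep2 did under the replicate block (-1.32) and without wild-type replicate 1 (-2.02).

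Lipid absorption genes fell in 24 of 25 cases (median -3.39). Apoa4, an apolipoprotein of chylomicrons, read 90.7 and 88.1 against 5263 and 8889 CPM (-6.31 ± 0.54, edgeR adjusted p = 0.00015) and Apoa1 76.7 and 153 against 3813 and 7685 CPM (-5.64 ± 0.64, edgeR adjusted p = 0.00078; -6.23 without EGFP replicate 2 and -5.05 without wild-type replicate 2). Apob, the core protein of the particle, read 107 and 168 against 2278 and 3162 CPM, and Mttp, which loads it with lipid, 126 and 160.5 against 2985 and 3773 CPM. These 4 genes make the particle that carries dietary fat into lymph. The fatty acid binding protein Fabp1 read 87.7 and 88.2 against 3256 and 4196 CPM, and Fabp2 268 and 336 against 4503 and 5999 CPM. The EGFP libraries were at least 10-fold below the lower wild-type library for all 6. Scarb1, a receptor of high-density lipoprotein, was the exception and rose (34 and 49.4 against 14.7 and 5.79 CPM, 2.05 ± 0.43), a call lost without EGFP replicate 2 (1.75) and without low-count filtering (2.05), and 2.85 without wild-type replicate 1.

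All 15 transporters of sugars, amino acids and peptides fell (median -2.90). The sodium-glucose transporter Slc5a1 read 143 and 135 against 1206 and 3488 CPM (-4.08 ± 0.53, edgeR adjusted p = 0.0014) and the basolateral glucose transporter Slc2a2 6.75 and 3.64 against 170.4 and 503 CPM (-6.05 ± 0.74, edgeR adjusted p = 0.0024). The peptide transporter Slc15a1 read 18.2 and 37.4 against 218 and 729 CPM (-4.08 ± 0.84, edgeR adjusted p = 0.018), and the fructose transporter Slc2a5 23.5 and 26 against 134 and 256 CPM. Wild-type replicate 2 was the higher library in each, and without it Slc5a1 came to -3.11, Slc2a2 to -5.07 and Slc15a1 to -2.96. Slc15a1 lost its call without EGFP replicate 1 (-3.54) or 2 (-4.70), without which the fold also moved, and without low-count filtering (-4.08), and came to -4.70 without wild-type replicate 1.

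Genes of iron, calcium and vitamin uptake fell in 7 of 13 cases and rose in 1 (median -1.22, and -1.83 without EGFP replicate 2). Rbp2, the retinol binding protein of enterocytes, read 96 and 125 against 3182 and 4226 CPM (-5.06 ± 0.47, edgeR adjusted p = 0.00022), and Cubn, a receptor of vitamin B12 with intrinsic factor, 8.92 and 4.4 against 179 and 373 CPM (-5.40 ± 0.60, edgeR adjusted p = 0.0013; -4.78 without wild-type replicate 2). The folate transporter Slc46a1 read 7.24 and 7.19 against 124 and 210.5 CPM, and the iron oxidase Heph 58 and 74.1 against 228 and 346 CPM. The iron importer Slc11a2 read 58.4 and 48.1 against 111 and 137 CPM. Cybrd1, the ferric reductase of the duodenum, was low in every library and did not pass (1.45 and 1.18 against 1.42 and 2.89 CPM, -0.73 ± 0.54, edgeR adjusted p = 0.32). Bco1, which cleaves carotene, was the member that rose (11.8 and 19.7 against 2.58 and 2.05 CPM, 2.79 ± 0.29).

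Drug and xenobiotic metabolism fell in 24 of 25 cases and rose in 0 (median -4.48). Cyp2b10 read 3.86 and 3.72 against 456 and 406 CPM (-6.83 ± 0.34, edgeR adjusted p = 2.8e-05) and Cyp3a11 5.91 and 10.3 against 815 and 569.7 CPM (-6.39 ± 0.54, edgeR adjusted p = 0.00031). Cyp1a1, the enzyme induced through the aryl hydrocarbon receptor, read 0.362 and 0.169 against 38.2 and 14.4 CPM (-6.65 ± 0.89, edgeR adjusted p = 0.0016; -5.78 without wild-type replicate 1). Aldh1a1, which makes retinoic acid, read 16.6 and 24.4 against 981 and 779 CPM, and the efflux pump Abcc2 15.7 and 21.7 against 407 and 463 CPM. Cyp2b10, Cyp3a11 and Aldh1a1 were not higher in wild-type replicate 2 than in replicate 1. Gsta4 did not pass (57.8 and 154 against 135 and 96.7 CPM), but fell without EGFP replicate 2 (-1.0). The Cyp2c, Cyp3a and Ces2 genes have near-identical copies between which reads are divided, so that their single values are uncertain.

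Fatty acid oxidation and ketogenesis fell in 13 of 17 cases and rose in 0 (median -1.48). Ehhadh, an enzyme of peroxisomal oxidation, read 41.4 and 45.7 against 236 and 264 CPM (-2.52 ± 0.17, edgeR adjusted p = 4.1e-05). The mitochondrial enzyme Acadvl read 113 and 128 against 366 and 386 CPM. The medians of the fatty acid oxidation list and of the enterocyte factors were nearer to 0 than those of brush border, lipid, transporter and xenobiotic genes; these differences between lists were not tested.

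**Figure D5:**
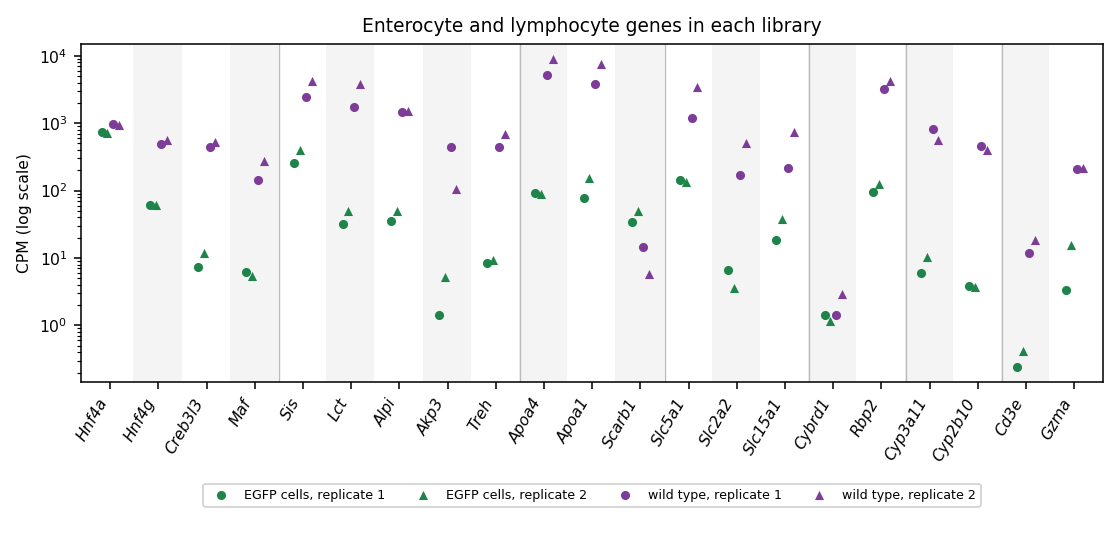
Levels of 21 enterocyte and lymphocyte genes in the 4 libraries (vertical, CPM on a log scale); green symbols are EGFP cells and purple symbols wild-type epithelium, circles replicate 1 and triangles replicate 2, with grey lines between transcription factors, brush border, lipid, transporter, vitamin and iron, xenobiotic and lymphocyte genes. EGFP symbols lie below wild type for 19 genes, by the least for Hnf4a, across it for Cybrd1 and above it for Scarb1.

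Markers of other cells were read in both groups. T cell markers, which the lymphocytes lodged in the epithelium express, fell in 14 of 15 cases (median -4.52, and -5.72 without EGFP replicate 2). Their sum was 18.2 and 45.9 CPM in EGFP cells and 691 and 759 CPM in wild type. Cd3e, of the T cell receptor complex, read 0.241 and 0.423 against 11.7 and 18.4 CPM (-5.41 ± 0.50, edgeR adjusted p = 0.00015), and the granzyme gene Gzma 3.38 and 15.5 against 212 and 219.6 CPM, with -4.47 in the fit of all 6 libraries and -3.70 and -6.00 without EGFP replicates 1 and 2. The lower calls of this comparison thus include lymphocyte genes beside enterocyte genes, and their part in the other lower calls was not tested.

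B, plasma and myeloid cell markers fell in 6 of 10 cases and rose in 0. Their sum was 18.6 and 49.9 CPM in EGFP cells and 65.9 and 81.9 CPM in wild type. The B cell gene Cd79a was at 0 in both EGFP libraries against 0.583 and 0.241 CPM in wild type, and was not tested. Mcpt1, a protease of mucosal mast cells, read 0.121 and 0.846 against 8.66 and 16.5 CPM (-4.56 ± 0.66, edgeR adjusted p = 0.0013; -3.78 without EGFP replicate 1, and wild type above the 1 count left without replicate 2 by a ratio of 110, with a 95% counting interval of 19.6 to 4340). The macrophage genes Lyz2 (0.482 and 29.3 against 2.58 and 2.65 CPM) and Csf1r (0 and 3.3 against 0.666 and 1.75 CPM) were higher in EGFP replicate 2 than in EGFP replicate 1 and both wild-type libraries and did not pass, and without that replicate the list's median of -2.18 came to -4.23.

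Of 8 tested genes of stroma, endothelium and muscle, 2 rose, near the 19.6% of all genes, and 0 fell. Vim, encoding vimentin, read 168 and 173 against 12.5 and 13.7 CPM (3.70 ± 0.33, edgeR adjusted p = 0.00017), and Pecam1 3.62 and 4.23 against 1.42 and 2.29 CPM (1.06 ± 0.34). Pecam1 was lost in the fit of the 4 libraries alone (1.15), without EGFP replicate 1 (1.27) or 2 (0.94), and without wild-type replicate 1 (0.78). The fibroblast collagen Col1a1 read 4.22 and 0.338 against 0.0833 and 8.92 CPM and did not pass (-1.07 ± 1.72, edgeR adjusted p = 0.66). Dcn, Lum, Cdh5, Kdr and Des were at 0 in both EGFP libraries and at or below 0.482 CPM in wild type, and were not tested. The list's median was 0.71, came to 2.77 without wild-type replicate 2 and turned to -1.04 without low-count filtering. Among pancreatic acinar genes, Cpa1, Cela2a, Cela3b, Prss2, Pnlip and Amy2a5 were at 0 in both EGFP libraries and in wild-type replicate 2. In wild-type replicate 1 they were at or below 4.41 CPM. Rnase1 (146 and 42 against 32 and 52.5 CPM) and Cela1 (4.34 and 10.6 against 9.41 and 8.38 CPM) did not pass. Hbb-bs, a globin gene of red cells, read 0.844 and 2.96 against 12.9 and 1.93 CPM (-1.89 ± 1.18, edgeR adjusted p = 0.26).

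Genes used as markers of distal gut fell in 5 of 6 tested cases (median -2.53). The defining ileal genes Slc10a2 and Fabp6 were not tested. Slc10a2 was at or below 0.589 CPM in each library. Fabp6 read 7.0 CPM in EGFP replicate 1 and 0.0846 CPM in EGFP replicate 2, against 0.0833 and 0.362 CPM in wild type. The genes that fell are also expressed by surface enterocytes: the water channel Aqp8 read 0 and 0.423 against 61 and 34 CPM (-7.54 ± 0.89, edgeR adjusted p = 0.0011; -6.69 without EGFP replicate 1, and at least 125-fold lower against 3 counts without replicate 2, which left 0), and the anion exchanger Slc26a3 21.8 and 20.6 against 267 and 304 CPM. Osr2, Car4 and Guca2b were the others that fell.

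Some cell states moved with the groups too. Genes of protein folding in the endoplasmic reticulum rose in 11 of 20 cases and fell in 0 (median 0.70), with a sum of 13198 and 10399.7 CPM in EGFP cells and 7823 and 6087 CPM in wild type. Pdia6, a disulfide isomerase, read 839 and 735 against 248 and 184 CPM (1.87 ± 0.23, edgeR adjusted p = 0.00053) and Xbp1, a factor of secretory capacity, 414 and 364 against 253 and 234 CPM (0.68 ± 0.17). The chaperone gene Hspa5 read 2762 and 1800.4 against 1508 and 1090.5 CPM and missed the threshold (0.81 ± 0.28, edgeR adjusted p = 0.052), which it passed under 6 of the 11 other settings. Without EGFP replicate 1 only 2 members passed, and without wild-type replicate 2 only 3. Xbp1 was lost without EGFP replicate 1 (0.68).

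Interferon response and MHC class I genes fell in 5 of 20 cases, near the 21.9% of all genes, and rose in 1 (median -0.39). B2m, the light chain of the class I complex, read 401 and 454 against 1232 and 1364 CPM. The heavy chain gene H2-K1 read 405 and 436 against 1223 and 1534 CPM, and the peptide pump Tap1 85.5 and 89.3 against 132 and 136 CPM. Ifit3 and Ifit1 also fell, and Isg15, a general interferon target, did not pass (15.6 and 11.9 against 16.1 and 26.7 CPM, -0.64 ± 0.29, edgeR adjusted p = 0.11). Oas2 was the member that rose (52.2 and 33.5 against 1.58 and 8.2 CPM, 3.08 ± 0.69, edgeR adjusted p = 0.017). Without EGFP replicate 1, Tap1 (-0.49), Ifit3 (-2.31) and Ifit1 (-1.56) were lost, leaving 3 lower members, Ifit1 also without EGFP replicate 2 (-1.94), wild-type replicate 2 (-1.32) or low-count filtering (-1.80), and Ifit3 came to -1.61 without wild-type replicate 2. Oas2 was lost without that filtering (3.08) and came to 2.38 and 4.74 without wild-type replicates 1 and 2, and Isg15 passed without wild-type replicate 1 (-0.96).

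MHC class II genes passed in 1 of 7 cases, downward. Cd74, the invariant chain, read 453 and 306 against 1785 and 139 CPM and did not pass. H2-Aa read 114 and 65.8 against 505 and 42.5 CPM (-1.61 ± 1.5, edgeR adjusted p = 0.47) and H2-Eb1, the one that fell, 12.2 and 6.34 against 355 and 64 CPM (-4.52 ± 1.20, edgeR adjusted p = 0.048). Wild-type replicate 1 was several times above wild-type replicate 2 for H2-Aa and H2-Eb1. The list's median of -1.44 came to 0.45 without replicate 1 and to -2.23, with 5 lower members, without replicate 2. H2-Eb1 did not pass without either EGFP replicate (-4.97 and -4.10), without low-count filtering (-4.53) and in the fit of the 4 libraries alone (-4.48), and came to -2.81 and -5.29 without wild-type replicates 1 and 2.

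Immediate early genes, which handling of tissue can raise, passed upward in 2 of 18 cases and downward in 1 (median -0.35). Fos read 1883 and 1697 against 2108 and 2144 CPM (-0.25 ± 0.22, edgeR adjusted p = 0.41). Egr3 (8.32 and 5.92 against 2.25 and 0.724 CPM, 2.31 ± 0.67, edgeR adjusted p = 0.035) and Dusp1 (342 and 289 against 177 and 169 CPM) rose and Zfp36 (562 and 486 against 1147 and 827 CPM) fell. Without wild-type replicate 2, 6 members passed downward. Egr3 was lost without EGFP replicate 1 (2.15) or 2 (2.55), without wild-type replicate 2 (1.64), without low-count filtering (2.30) and under the replicate block (2.31), and came to 3.26 without wild-type replicate 1, and Zfp36 was lost without EGFP replicate 1 (-0.93) or 2 (-0.81).

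Outside the lists, the 8 genes with the widest rise at 10 CPM or more in both EGFP libraries were Ceacam2, Ear2, Gatm, Plb1, Cyp2j5, Col6a5, Kcnk16 and Art2a-ps. Ceacam2 (chromosome 7, 25516042 to 25540004, GRCm38), a cell adhesion molecule, read 184 and 123 against 0.416 and 0.663 CPM (8.08 ± 0.43, edgeR adjusted p = 3.7e-05). Its paralogs, like those of Ear2, could share reads with it. Ear2, a ribonuclease of a gene family first known from eosinophils, read 15.4 and 19.1 against 0.0833 and 0.181 CPM (6.86 ± 0.59, edgeR adjusted p = 0.00012). Without wild-type replicate 2 the ratio of Ear2 to the 1 count left was 211 (95% counting interval 37.7 to 8370). Both Ceacam2 and Ear2 read between 0.141 and 2.78 CPM in the EYFP libraries, as did Art2a-ps (25.1 and 11.5 CPM in EGFP cells, 0.333 and 0.482 CPM in wild type, 1.55 and 0.336 CPM in EYFP cells).

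Kcnk16, a potassium leak channel, read 15.7 and 21.2 against 0.416 and 0.422 CPM (5.43 ± 0.29, edgeR adjusted p = 2.7e-05) and the phospholipase Plb1 28.5 and 34.2 against 0.5 and 0.663 CPM (5.71 ± 0.24, edgeR adjusted p = 2e-05). Gatm, which makes the precursor of creatine, read 12.7 and 21.7 against 0.0833 and 0.302 CPM (6.31 ± 0.97), with 1 count left without wild-type replicate 2 and a ratio of 216 (95% counting interval 38.5 to 8560). The collagen Col6a5 read 15.7 and 11.6 against 0 and 0.482 CPM (5.59 ± 0.66; 4.79 without wild-type replicate 1, and at least 53.1-fold higher against 3 counts without replicate 2, which left 0). Cyp2j5 read 10.6 and 19 against 0.25 and 0.302 CPM (5.69 ± 1.42, edgeR adjusted p = 0.027) and no longer passed without EGFP replicate 2 (5.20), without wild-type replicate 1 (5.58) or 2 (3 counts left, a ratio of 62.3 with a 95% counting interval of 21.1 to 304), and without low-count filtering (5.68).

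The 8 genes with the widest fall at 10 CPM or more in both wild-type libraries were Cyp2c29, Cyp2c55, Slc28a1, Cyp4a10, Bst1, Tmprss15, Enpp7 and Gdpd2. Cyp2c55, a cytochrome P450, read 0.724 and 0.93 against 153 and 129 CPM (-7.37 ± 0.26, edgeR adjusted p = 2e-05). Cyp2c29, a close relative, had 3 counts over both EGFP libraries, and wild type was higher by a ratio of 178 with a 95% counting interval of 60.6 to 864. Without EGFP replicate 1, which left 0 counts, it was at least 105-fold lower against 3 counts, and without replicate 2 the ratio was 73.3 (25 to 356). Slc28a1, a nucleoside transporter, read 2.17 and 2.11 against 184 and 472 CPM (-7.26 ± 0.86; -6.42 without wild-type replicate 2), and Tmprss15, the enteropeptidase that activates trypsinogen in the duodenum, 0.121 and 0.338 against 23.7 and 11.8 CPM (-6.11 ± 0.70), with a ratio of 139 (24.8 to 5500) over the 1 count left without EGFP replicate 2. Enpp7, which digests sphingomyelin, read 4.1 and 4.4 against 153 and 426 CPM (-6.08 ± 0.59; -5.16 without wild-type replicate 2). Bst1 had a log2 fold change of -6.34 (-5.61 without wild-type replicate 2) and Gdpd2 of -6.01 (-5.15 without it). Cyp4a10 had -6.49, with -5.87 without wild-type replicate 1, and without EGFP replicate 2 wild type was higher than the 1 count left by a ratio of 181 (32.4 to 7160). All 8 are genes in which each EGFP library was below 5 CPM.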

How the data were processed

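RNA was extracted with an RNeasy Micro kit, made into libraries with a TruSeq RNA kit and sequenced as 50-base single-end reads, per the labels' protocols. For each of the 6 libraries, estimated counts per gene were deposited in 1 table. The submitters' processing notes list the build mm10 and the tools RSEM 1.3.1, Bowtie2, DESeq2 1.26.0 and FastQC 0.11.8, without their roles. RSEM divides reads between similar genes, so that values of near-identical copies are uncertain, and strand use is not stated in these sources. The authors also deposited a table of fold ratios between groups with p-values and adjusted p-values, used here only for the counts credited to it. Its 6 columns of per-sample values were not used, and 23 of its 14630 rows have names turned into dates.

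The estimated counts were rounded and fitted in edgeR 4.0.16 (R 4.3.3) with its robust quasi-likelihood test, TMM scaling and 1 mean for each of 3 groups. All 6 libraries shared the estimate of spread (3 residual degrees of freedom, common biological coefficient of variation 19.8%). edgeR's filter by group kept 13935 of 23845 genes (58.4%), and p-values were adjusted over these by the Benjamini-Hochberg method with a threshold of 0.05. The script was tested on simulated data with far fewer changed genes than were called here and the same spread for every gene. That test therefore does not cover the conditions of these data. One count was worth 0.0603 to 0.121 CPM in these 4 libraries. Depth limits low genes: where a group had 0 counts, a fold is a bound against a floor of 3 counts for the whole group. Where it had 1 to 3, the fold is a ratio with an exact 95% interval, which like the floor covers counting error only.

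The comparison's members and the gene lists (33 lists, 624 symbols, of which 618 had a row) were chosen with earlier results of these data known. The genes named are Neurog3, the first symbol of each list, the 2 members of each lineage list and 1 of each other list with the widest called difference among those with at least 5 CPM in each library of the group that was higher, and the 8 genes outside the lists with the widest called difference in each direction with at least 10 CPM there. Every other gene named was chosen after its values were seen, and some genes of the rule are not reported here. Coordinates and promoter windows are from RefSeq on GRCm38.p6, the assembly on which mm10 is based, and coordinates matched 23580 genes (98.9%) by symbol or accession.

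The alternatives were DESeq2 1.42.0 size factors, TMM without the 50 most abundant genes, no filter, a minimum of 10 counts, the DESeq2 Wald test, a fit of the 4 libraries alone, a replicate block, and leaving out each of the 4 libraries. In the last, the lone library of a group is assumed to vary like the other groups. Replicate numbers are shared between groups, but deviations of same-numbered libraries from their group means correlated by 0.096, 0.022 and 0.014, so that the numbers were not taken to pair the samples.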

Additional observations from a re-analysis of the deposited data

How the results depend on the processing

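Over 11 alternatives, 668 of 726 list counts stayed within 1.5 times their value, 58 did not, 64 of 363 list medians moved by more than the spread between replicates, and of 2275 fold changes of named genes 95 lost and 20 gained a call and 31 changed sign; the cause was not tested. Leaving out single libraries gave 1974 to 2307 higher and 1864 to 3020 lower genes, and the DESeq2 size factors split the calls as 2887 higher and 2885 lower. In the same runs the members called higher ranged from 8 to 14 for hormones, 0 to 14 for tuft cells, 0 to 1 for mitosis, enterocyte factors and lipid absorption, 1 to 2 for interferon response and for stroma, 2 to 11 for endoplasmic reticulum folding and 1 to 3 for immediate early genes. Those called lower ranged from 2 to 6 for Notch, 0 to 1 for goblet, Paneth, tuft, stem and erythroid genes, 3 to 7 for interferon response, 0 to 5 for MHC class II and 0 to 6 for immediate early genes.

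Without a low-count filter, 4 Paneth and 0 lipid members were higher, 0 MHC class II members lower and 1 immediate early member higher. In the 4 libraries alone, 2 enterocyte factors, 3 interferon members and 1 stroma member were higher and 0 MHC class II members lower. Interferon members called higher were 2 with DESeq2 size factors, a minimum of 10 counts, the DESeq2 Wald test and the block. The Wald test called 3 immediate early and 1 erythroid members lower. The replicate numbers were not taken to pair the samples, and whether they do is not known. A replicate block gave 2814 higher and 3155 lower genes. Under it 2 enterocyte factors and 1 immediate early member were higher and 2 MHC class II and 4 immediate early members lower. The block also ended the calls of Akp3 and Egr3 and made Xpnpep2, Hspa5 and Clca3 pass.

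The log2 fold changes that changed sign were of genes whose difference had not passed. Over the runs without 1 library, they ranged from -0.21 to 0.36 for Lyz1, -0.41 to 0.26 for Lgr5, -0.34 to 0.34 for Mki67, -0.54 to 0.01 for Pcna, -0.54 to 0.16 for Olfm4, -0.53 to 0.05 for Ddc, -0.05 to 0.08 for Cadps2, -0.18 to 0.76 for Pdx1, -0.51 to 0.70 for Hcn3, -0.40 to 0.73 for Adm and -1.0 to 0.51 for Gsta4. They ranged from -2.49 to 1.08 for H2-Aa, -2.23 to 1.45 for Cd74, -3.59 to 4.55 for Col1a1, -3.10 to 0.02 for Hbb-bs, -8.70 to 0.09 for Defa21, -11.89 to 4.31 for Defa20, -1.31 to 11.47 for Retnlb, -2.42 to 3.58 for Lyz2 and -6.98 to 1.51 for Csf1r. The ends of -11.89, 11.47 and -6.98 are fitted against a library at 0 counts, depend on the prior count and are no folds. Against 3 counts, Defa20 was at least 128-fold lower without EGFP replicate 1, Retnlb at least 102-fold higher without wild-type replicate 2 and Csf1r at least 3.58-fold lower without EGFP replicate 2. The ends of -8.70 and 4.55 rest on 3 and 1 counts. The list medians that changed sign included those of serotonin genes without EGFP replicate 1 (0.05) and of stroma (-1.04) and acinar genes (-3.99) without low-count filtering. Without wild-type replicate 1, those of mitosis (0.15), MHC class II (0.45), immediate early (0.31) and erythroid genes (0.02) did. The DNA replication median went from 0.11 to -0.09 without wild-type replicate 2. That of cell cycle exit went from -0.04 to 0.05 without EGFP replicate 1, 0.04 without wild-type replicate 1 and 0.02 in the 4 libraries alone. Cadps2 also changed sign with DESeq2 size factors (0.02), the Wald test (0.02) and the 4 libraries alone (0.05), as did Mki67 in the last (0.02).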
